A study of Mus musculus with 2 samples.

Results

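The translation initiation and elongation factors described here are the genes of the deposited count table whose symbols begin with Eif or Eef and a digit, leaving out Eif2s3x and Eif2s3y. The table has 61 such genes among its 24061 rows, and 58 of them had at least 20 counts summed over both libraries, the minimum for a measured gene. The comparison set 1 library labelled Pc4-OE (Pc4 overexpression, passages 24 to 37) against 1 library labelled control (passages 17 to 23). Both came from C57BL/6 mouse embryonic stem cells kept on fibroblast feeder cells with leukaemia inhibitory factor, and poly(A) RNA was sequenced. The design text describes 3 overexpressing lines, picked as colonies after a lentivirus that also carried the Venus fluorescent marker. The labels do not state which of those lines gave the RNA or whether the feeder cells were taken away, and passage number cannot be told apart from the label.

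The 2 libraries differed little in depth, at 10194783 (Pc4-OE label) and 10571463 counts (control label). Sub1, which encodes PC4, stood at 235.0 CPM (the usual library-scaled count, after edgeR TMM adjustment of library sizes) in the library labelled Pc4-OE and at 530.3 CPM in the library labelled control. That is 2.26-fold lower in the library labelled as overexpressing, so every direction below is a direction between labels. All 10 stem cell markers listed for the check were present in both libraries, and they summed to 4876 CPM under the Pc4-OE label and 6147 CPM under the control label. They went both ways, with 6 under a ratio of 1 and 4 above it (median log2 ratio -0.13), and Lin28a, Pou5f1 and Tdgf1 were the 3 at least 1.5-fold lower. All 24 fibroblast markers were higher under the Pc4-OE label, with sums of 19806 and 8331 CPM, as were all 16 macrophage markers in the table, with sums of 599.8 and 223.0 CPM. No marker of the 3 lists was at 0 in either library. In bulk RNA of this kind, fewer cells of a type and less RNA per cell cannot be told apart, and the part of these markers in the results below was not tested.

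In eukaryotic cells a small ribosomal subunit loaded with initiator tRNA by eIF2 binds an mRNA whose cap is held by eIF4F, scans to the start codon with the help of eIF1, eIF1A and eIF3, and is joined by the large subunit. Elongation factors then bring each aminoacyl-tRNA (eEF1A) and move the ribosome along (eEF2). Phosphorylation of eIF2 and sequestration of eIF4E by the 4E-BP proteins are the best known controls, and embryonic stem cells are known for low overall protein synthesis relative to their differentiated progeny.

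Most translation factor genes were modestly lower in the library labelled Pc4-OE. Of the 58 measured genes, 48 (82.8%) had a ratio (Pc4-OE over control) under 1, against 50.7% of all 14213 genes measured. Their median log2 ratio was -0.39, against -0.01 over all genes, and single genes lay between -1.04 and 0.90. The differences were small. Only Eif2b1 was at least 2-fold lower with a counting interval that left out a ratio of 1 (1.72% of the members, against 4.02% of all genes), and 0 were at least 2-fold higher, against 11.8% of all genes. At a fold of 1.5, 13 members were lower (22.4%, against 13.2% of all genes) and 2 were higher, Eif4g3 and Eif1b (3.45%, against 18.8%). With plain library totals in place of TMM, 8 were lower, since Eif2s2, Eif3a, Eif3c, Eif4ebp3 and Eef1d lay close to the line. By those totals 3 were higher. Without the members on chromosomes 5 and 15, described further on, 6 were lower.

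Intervals throughout are exact 95% binomial intervals of the 2 counts. They cover counting error alone. There was 1 library per label, so no spread between cultures could be measured and no p-value was computed. By that counting error alone, the interval lay below a ratio of 1 for 46 members, above it for 7 and across it for 5. Over all 14213 genes measured, it lay below 1 for 4701, above it for 4429 and across it for 5083.

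**Figure D1:**
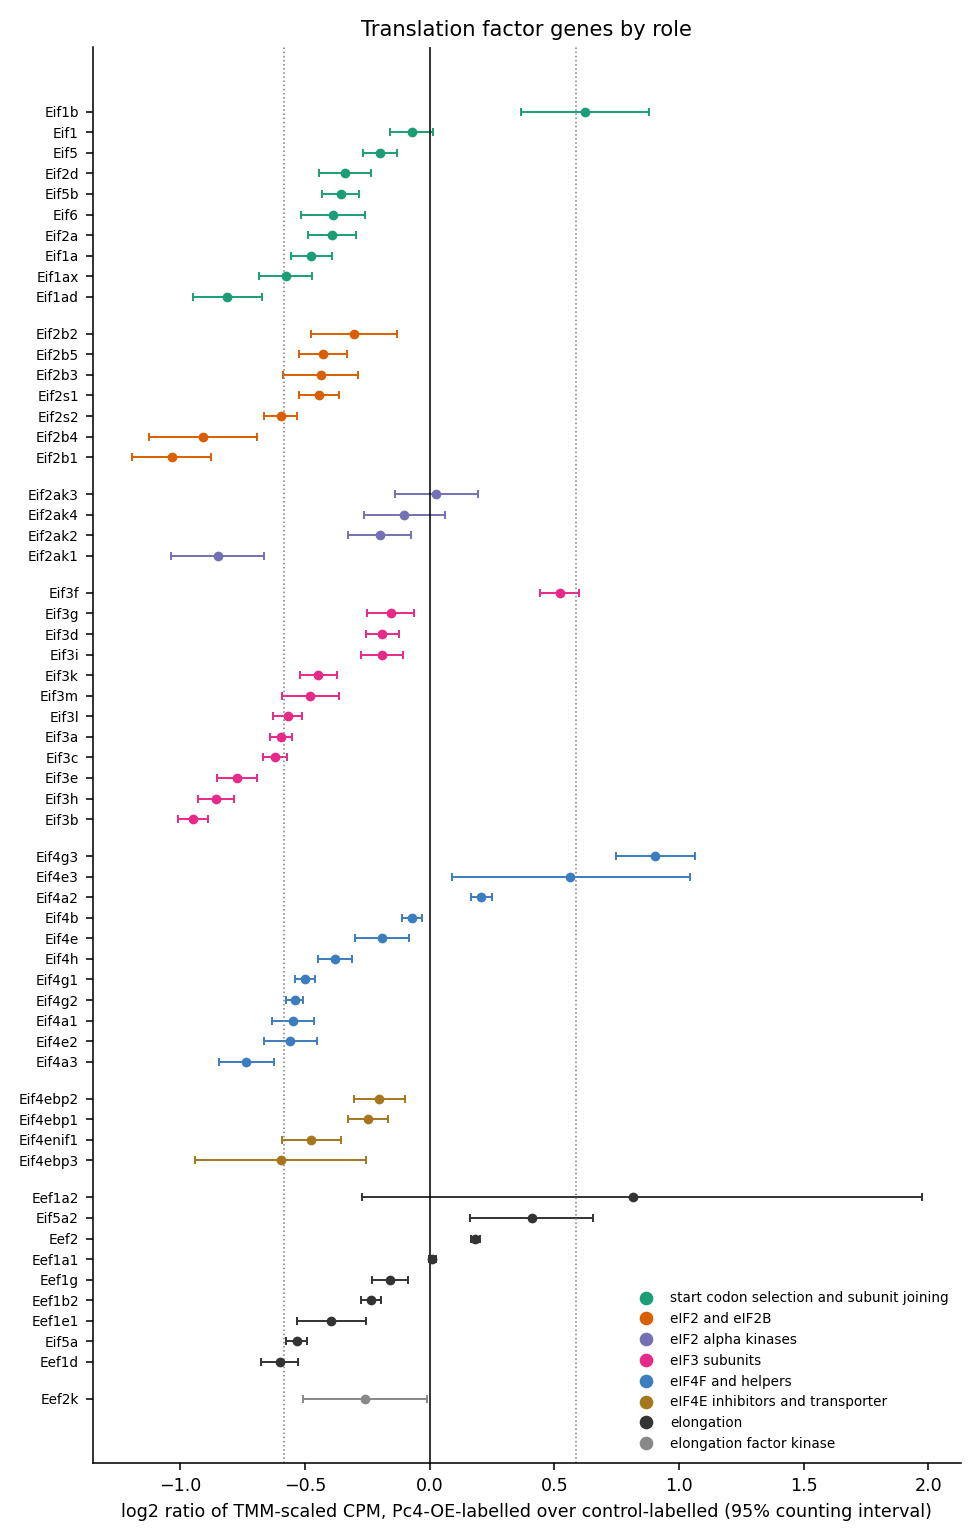
Log2 ratio (Pc4-OE label over control label, horizontal axis) of each of the 58 measured translation factor genes, grouped by role, with bars for the 95% counting interval and dotted lines at 1.5-fold either way. Points lie left of 0 for 48 genes, and the widest bar is that of Eef1a2, which had 21 and 12 counts.

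Translation factors are abundant, and abundant genes in general were lower under the Pc4-OE label. At a mean level of 100 CPM or more, 37 of 41 translation factors (90.2%) and 64.6% of the 2574 other genes had a ratio below 1. The medians at that level were -0.43 for the translation factors and -0.18 for the others. Of the 41, 8 were at least 1.5-fold lower (19.5%, against 15.3% of the others) and 0 were higher (against 10.3%). All members together took 2.73% of all counts under the Pc4-OE label and 3.00% under the control label. Eef1a1 and Eef2 alone made up 1.31% and 1.20% of the counts, and the rest of the members 1.42% and 1.80%.

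**Figure D2:**
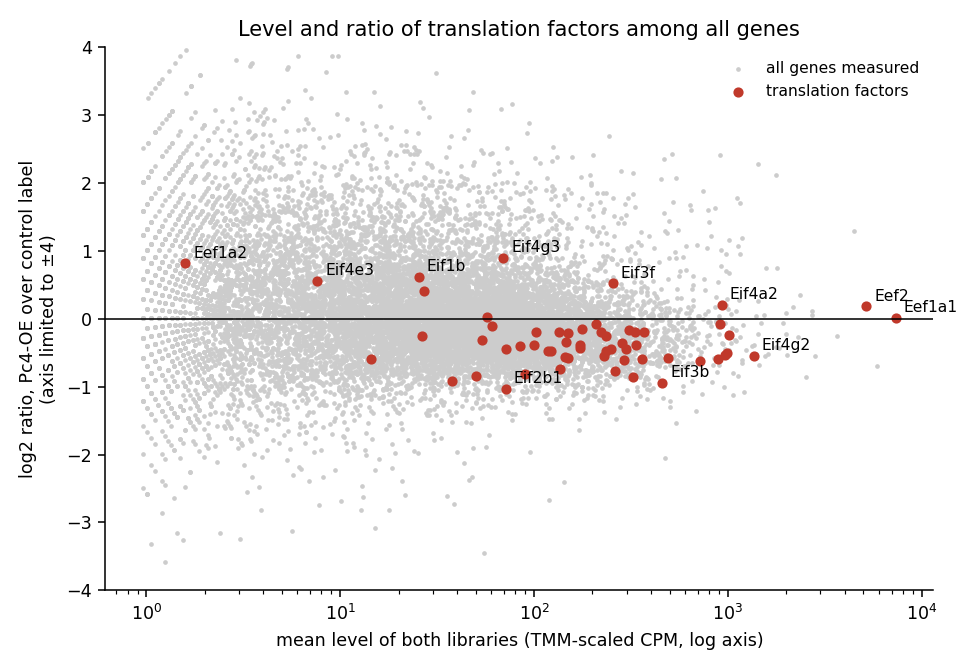
Mean level over both libraries (TMM-scaled CPM, log axis) against the log2 ratio of Pc4-OE over control, with all 14213 measured genes in grey and the 58 translation factors in red. The 10 members above 0 include Eef1a1 and Eef2 at the far right and low-level family members such as Eif4e3, Eif1b and Eif4g3.

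The factors that choose the start codon and join the subunits were mostly lower. Their median log2 ratio was -0.37, and 9 of 10 lay under a ratio of 1. Eif1ad, placed in this group by name for its eIF1A-like domain, was the only gene of the group at least 1.5-fold lower. It had 65.2 CPM under the Pc4-OE label and 114.5 CPM under the control label, 1.76-fold lower. The genes of eIF1A itself, which stabilises the scanning complex, followed in the same direction: Eif1ax had 119.9 and 179.0 CPM (log2 ratio -0.58) and Eif1a had 197.0 and 273.7 CPM (-0.47). Eif5b, the GTPase of subunit joining, had 247.8 CPM under the Pc4-OE label and 317.5 CPM under the control label (-0.36). Eif6, which keeps free large subunits from joining too early, stood at 86.1 and 112.6 CPM (-0.39). Eif2a and Eif2d, which can deliver initiator tRNA without eIF2, had log2 ratios of -0.39 and -0.34.

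Within this role group, Eif1 and Eif5 were closest to even. Eif1, the gatekeeper against wrong start codons, had 203.6 CPM under the Pc4-OE label and 214.0 CPM under the control label, a log2 ratio of -0.07 whose interval (-0.16 to 0.01) held 0. Eif5, which triggers GTP hydrolysis by eIF2, had 310.6 and 356.5 CPM (-0.20, interval -0.27 to -0.13). Eif1b, a paralog of Eif1, went the other way from the rest of this role group, with 30.7 CPM under the Pc4-OE label and 20.0 CPM under the control label (318 and 208 counts), 1.54-fold higher (log2 interval 0.36 to 0.88).

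All 7 measured genes of eIF2 and of its exchange factor eIF2B were lower under the Pc4-OE label, with a median log2 ratio of -0.44. eIF2B reloads eIF2 with GTP after each round and is the target that phosphorylated eIF2 blocks. Its alpha subunit gene Eif2b1 had 47.1 CPM (487 counts) under the Pc4-OE label and 96.4 CPM (1004 counts) under the control label, 2.05-fold lower (log2 interval -1.19 to -0.88). With plain library totals it no longer met the 2-fold rule. The delta subunit gene Eif2b4 had 26.2 and 49.2 CPM, 1.88-fold lower. Eif2b1 and Eif2b4 both lie on chromosome 5, where 749 other genes had a median log2 ratio of -0.32. The remaining eIF2B genes differed less, with Eif2b3 (gamma) at -0.44, Eif2b5 (epsilon, the catalytic subunit) at -0.43 and Eif2b2 (beta) at -0.31. Of the eIF2 subunits, Eif2s2 (beta) had 287.2 CPM under the Pc4-OE label and 434.8 CPM under the control label (-0.60), and Eif2s1 (alpha, which carries the regulatory serine) had 212.3 and 288.7 CPM (-0.44).

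Of the 4 kinases that phosphorylate eIF2 alpha, 2 were lower and 2 were near even. Eif2ak1, the haem-regulated kinase HRI, had 35.7 CPM under the Pc4-OE label and 64.2 CPM under the control label, 1.80-fold lower, and lies on chromosome 5. Eif2ak2, the double-stranded RNA sensor PKR, had 94.98 and 109.2 CPM (log2 ratio -0.20). The intervals of the last pair held 0: Eif2ak4, the amino acid sensor GCN2, was at -0.10 (interval -0.26 to 0.06) and Eif2ak3, the endoplasmic reticulum stress kinase PERK, at 0.03 (-0.14 to 0.19). Other genes that act on this step gave a median of -0.20 over the 9 measured, with 1 at least 1.5-fold lower (11.1%, against 13.2% of all genes) and 0 higher. Atf4, whose mRNA is translated better when eIF2 is phosphorylated, had 406.9 CPM under the Pc4-OE label and 455.5 CPM under the control label (-0.16). The phosphatase subunits Ppp1cb (-0.60) and Ppp1ca (-0.57) were lower, and Ppp1r15a, which directs the phosphatase to eIF2 alpha, was slightly higher (0.25, interval 0.10 to 0.40).

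eIF3, the large scaffold that bridges the small subunit, the mRNA and eIF4F, had a median of -0.52, the lowest of the role groups. That order changed without members on chromosomes 5 and 15: the eIF3 median was then -0.45 and that of eIF4F and helpers -0.50. Under a ratio of 1 were 11 of its 12 measured subunit genes (91.7%), against 50.7% of all genes. At least 1.5-fold lower were 5 of the 12 (41.7%, against 13.2% of all genes): Eif3b, Eif3h, Eif3e, Eif3c and Eif3a. Each of the 12 averaged more than 100 CPM. Among other genes at that level, 64.6% lay under a ratio of 1 and 15.3% were at least 1.5-fold lower. Eif3b, which forms a module with Eif3g and Eif3i, had 313.3 CPM (3243 counts) under the Pc4-OE label and 605.3 CPM (6303 counts) under the control label, 1.93-fold lower. Eif3a, the largest subunit, had 704.9 and 1066.0 CPM, 1.51-fold lower, and Eif3c, its partner in the core, had 563.8 and 867.3 CPM, 1.54-fold lower. With plain library totals neither Eif3a nor Eif3c passed 1.5-fold. Eif3h had 229.8 CPM under the Pc4-OE label and 416.0 CPM under the control label (1.81-fold lower), and Eif3e had 192.8 and 329.7 CPM (1.71-fold lower).

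Subunits of the same complex thus differed by unequal amounts. Eif3l (-0.57), Eif3m (-0.48) and Eif3k (-0.45) stood in the middle, while Eif3i (-0.19), Eif3d, a subunit that can itself bind a cap (-0.19), and Eif3g (-0.16) were close to even. The exception was Eif3f, with 301.8 CPM (3124 counts) under the Pc4-OE label and 210.4 CPM (2191 counts) under the control label. It was 1.43-fold higher, with a log2 ratio of 0.52 (interval 0.44 to 0.60), so that its interval does not meet those of the other 11 subunits. Only 0.403% of the 31-base words of its longest transcript occur in transcripts of other genes, whereas for Eif3h the share was 37.4%.

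Levels per kb of annotated exon allow subunits to be compared with each other. Under the control label they spanned 49.1 CPM per kb (Eif3e) to 258.1 CPM per kb (Eif3h), and under the Pc4-OE label 28.7 CPM per kb (Eif3e) to 160.6 CPM per kb (Eif3c). Eif3f was at 104.4 CPM per kb under the Pc4-OE label and 72.8 CPM per kb under the control label. Eif3b was at 93.6 and 180.9 CPM per kb. Eif3f was thus below Eif3b in the library labelled control and above it in the library labelled Pc4-OE. The lengths are unions over all annotated isoforms, which understates the level of a gene with long rare exons.

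**Figure D3:**
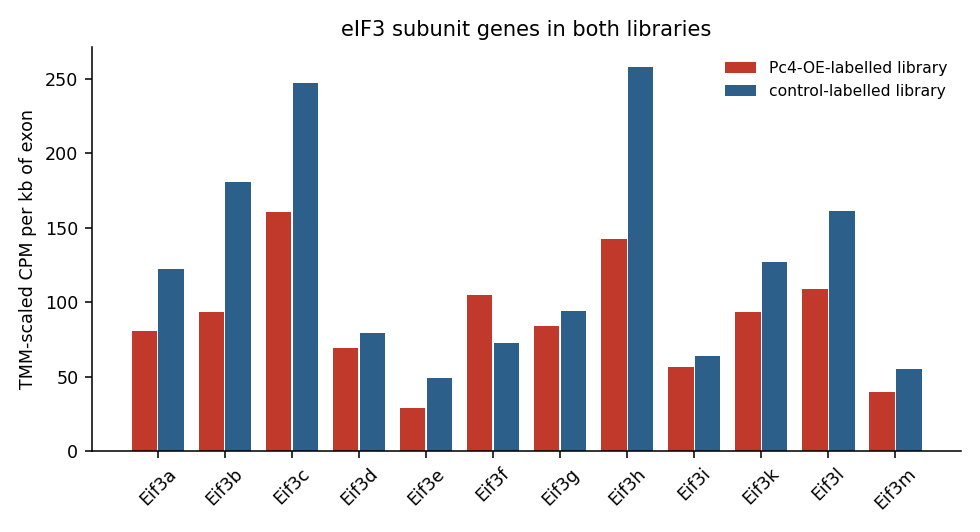
Level of each measured eIF3 subunit gene in TMM-scaled CPM per kb of annotated exon, with the Pc4-OE-labelled library in red and the control-labelled library in blue. The red bar is the shorter one for 11 subunits and the taller one for Eif3f (104.4 against 72.8).

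The start of Eif3f is shown because several translation factor mRNAs, Eif3f among them, belong to the terminal oligopyrimidine (TOP) class, whose translation is controlled through mTORC1 and which begin with a C and a run of pyrimidines. The 30 bases around its RefSeq start (GRCm38.p6, chr7:108934400-108934429, plus strand), with the pyrimidine run in capitals, read:
Eif3f: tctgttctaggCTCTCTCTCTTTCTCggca
The run begins 4 bases before the annotated start. A C followed by at least 4 pyrimidines on the sense strand, beginning within 5 bases of an annotated start, was present in 11 of the 46 members that RefSeq's promoter table held (23.9%), in 20.8% of the 11225 measured genes with an entry and in 16.1% of all 32851 promoters. Members with the tract had a median log2 ratio of -0.47, with 8 of 11 below a ratio of 1, and those without it -0.36, with 29 of 35 below. Over all measured genes the medians were 0.01 with the tract and -0.02 without it. The tract by this rule does not mark the TOP class. Of the known TOP mRNAs, Eef1a1 and Eif3f had it, while Eef2, Eif4b and Eef1b2 did not.

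Known TOP mRNAs other than those of ribosomal proteins gave mixed values. Of the 14 in the table, 9 of them members, 9 lay under a ratio of 1 (64.3%, against 50.7% of all genes), with a median of -0.14. At a fold of 1.5, 4 were lower (28.6%, against 13.2% of all genes) and 1 was higher (7.14%, against 18.8%). The lower ones were Nap1l1 and the members Eif3h, Eif3e and Eef1d, which were counted above and lie on chromosome 15. Tpt1, which encodes the translationally controlled tumour protein, had 313.1 CPM under the Pc4-OE label and 164.1 CPM under the control label (log2 ratio 0.93). Gnb2l1, the ribosomal scaffold RACK1, was near even at 0.09. Nap1l1, a histone chaperone, was at -0.80 and Pabpc1 at -0.55.

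Around the cap, the scaffold and helicase genes Eif4g1 and Eif4a1 were lower, while their paralogs Eif4g3 and Eif4a2 were higher. The 11 measured eIF4F genes and helpers had a median of -0.38, and 8 of them lay under a ratio of 1. Eif4g1, the scaffold that joins cap, helicase and poly(A) tail, had 823.3 CPM (8521 counts) under the Pc4-OE label and 1163.1 CPM (12111 counts) under the control label (log2 ratio -0.50, interval -0.54 to -0.46). Eif4g3, its paralog eIF4GII, had 90.5 CPM (937 counts) and 48.4 CPM (504 counts), and was 1.87-fold higher (log2 ratio 0.90, interval 0.75 to 1.06), the highest ratio of all 58 members. Eif4g3 lies on chromosome 4 at 137991779 to 138207086 (GRCm38). Eif4g2, also called DAP5, which lacks the eIF4E-binding part, had 1113.6 CPM under the Pc4-OE label and 1619.9 CPM under the control label (-0.54) and so went with Eif4g1.

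The helicase genes split in the same way. Eif4a1, which unwinds the 5′ leader, had 185.6 CPM under the Pc4-OE label and 271.5 CPM under the control label (-0.55). Eif4a2 had 998.3 and 864.9 CPM (0.21, interval 0.17 to 0.25), and was the more abundant of the pair in both libraries. Eif4a3, grouped here by name, encodes a core protein of the exon junction complex and not of eIF4F. It had 102.4 and 170.5 CPM and was 1.66-fold lower, the only gene of the group at least 1.5-fold lower. Reads of Eif4a3 and Eif4a1 are harder to place, with 44.8% and 37.8% of their 31-base words shared with other genes, against 16.9% for Eif4a2. The helicase cofactors Eif4b (888.8 CPM under the Pc4-OE label and 933.4 CPM under the control label, -0.07) and Eif4h (291.9 and 379.8 CPM, -0.38) were near even and lower.

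Among cap-binding proteins, Eif4e had 125.6 CPM under the Pc4-OE label and 143.3 CPM under the control label (-0.19). Eif4e2, the homologue 4EHP that represses translation, had 117.2 and 172.8 CPM (-0.56). Eif4e3, a cap-binding homologue at low level, had 9.08 CPM (94 counts) and 6.15 CPM (64 counts), a log2 ratio of 0.56 with a wide interval (0.09 to 1.04). All 4 genes of the eIF4E inhibitors and transporter lay under a ratio of 1: Eif4ebp1 was at -0.25, Eif4ebp2 at -0.20, the transporter gene Eif4enif1 at -0.47 and Eif4ebp3 at -0.60 on 119 and 181 counts. Of the words of Eif4ebp3, 66.4% occur in transcripts of other genes.

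Partners of the cap complex were at least 1.5-fold lower at a share near that of all genes, and higher at a smaller share. Of 17 poly(A)-binding proteins, 4E kinases and related genes, 2 were at least 1.5-fold lower (11.8%, against 13.2% of all genes). At that fold 1 was higher (5.88%, against 18.8%). Under a ratio of 1 lay 11 (64.7%, against 50.7% of all genes and 65.0% of genes at 100 CPM or more). The median of the 17 was -0.23, against -0.01 over all genes. Denr, which helps remove tRNA from the small subunit after termination, was at -0.76, and the helicase gene Ddx3x at -0.68 (694.2 CPM under the Pc4-OE label and 1113.7 CPM under the control label). Pabpc1, the main cytoplasmic poly(A)-binding protein, had 2289.3 and 3363.2 CPM (-0.55). Pdcd4, which inhibits the helicase eIF4A, was higher, with 56.8 CPM under the Pc4-OE label and 34.4 CPM under the control label (0.72).

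The 9 genes grouped under elongation, Eef1e1 among them by name only, reached nearly equal sums in the 2 libraries, led by Eef1a1 and Eef2. They added up to 15241 CPM under the Pc4-OE label and to 15221 CPM under the control label, with a median log2 ratio of -0.16. Eef1a1, which carries aminoacyl-tRNA to the ribosome, was the most abundant member, with 7378.2 CPM (76364 counts) and 7325.8 CPM (76283 counts). Its log2 ratio was 0.01, and 72.3% of its 31-base words are found in other genes, so its count depends on how repeated reads were treated. Eef2, the translocase, had 5515.0 CPM under the Pc4-OE label and 4859.4 CPM under the control label (0.18, interval 0.17 to 0.20).

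The exchange complex that recycles eEF1A was lower by unequal amounts. Eef1d had 232.5 CPM under the Pc4-OE label and 352.6 CPM under the control label, 1.52-fold lower, and Eef1b2 had 926.3 and 1090.2 CPM (-0.24). Eef1g, the structural subunit, was at -0.16, with 68.0% of its words shared with other genes. Eef1e1, a scaffold component of the multi-tRNA synthetase complex, was at -0.39. Eif5a, which relieves stalled ribosomes and carries the modified residue hypusine, had 791.5 CPM under the Pc4-OE label and 1146.3 CPM under the control label (-0.53). The kinase gene Eef2k, whose product inactivates eEF2, was at -0.26 (interval -0.51 to -0.01).

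In 6 pairs of paralogs the first and the second family member differed between the libraries in unequal ways. This set of 6 pairs was put together after the values had been seen, and its pattern is therefore a description. In each, the second gene had the higher ratio: Eif1b over Eif1, Eif4a2 over Eif4a1, Eif4e3 over Eif4e, Eif4g3 over Eif4g1, Eif5a2 over Eif5a and Eef1a2 over Eef1a1. The log2 ratios differed by 0.69, 0.76, 0.75, 1.40, 0.94 and 0.81 in that order. The interval of Eef1a2, on 21 and 12 counts, ran from -0.27 to 1.97 and held that of Eef1a1.

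Shares within a pair show the size of these differences. Eif4g3 made up 9.91% of the counts of Eif4g1 and Eif4g3 under the Pc4-OE label (exact interval 9.31 to 10.5) and 4.00% under the control label (3.66 to 4.35). Eif4a2 made up 84.3% of its pair (83.7 to 84.96) and 76.1% (75.3 to 76.9). Eif5a2, with 30.7 CPM under the Pc4-OE label and 23.1 CPM under the control label, made up 3.74% (3.34 to 4.16) and 1.98% (1.74 to 2.24). For Eif1b the shares were 13.1% (11.8 to 14.5) and 8.54% (7.46 to 9.72). These shares, and the levels per kb that follow, depend on how reads shared between genes were placed. Of the 31-base words of Eif4a1 and Eif1, 37.8% and 37.2% occur in transcripts of other genes. For Eif4a2 and Eif1b it is 16.9% and 0.199%. Per kb of exon, the first member remained the more abundant in both libraries for Eif1, Eif4e, Eif4g1, Eif5a and Eef1a1, and the less abundant for Eif4a1. Among the other relatives, Eif4g2 with Eif4g1, Eif4ebp2 with Eif4ebp1 and Eif1ax with Eif1a differed by -0.04, 0.05 and -0.10 in log2 ratio. Eif4e2 and Eif4e did split, but the other way, by -0.37: Eif4e2 made up 48.3% of their counts under the Pc4-OE label (46.3 to 50.2) and 54.7% under the control label (52.9 to 56.4). The second members lay in the same direction as the fibroblast and macrophage markers given above, whose part in these values was not tested.

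**Figure D4:**
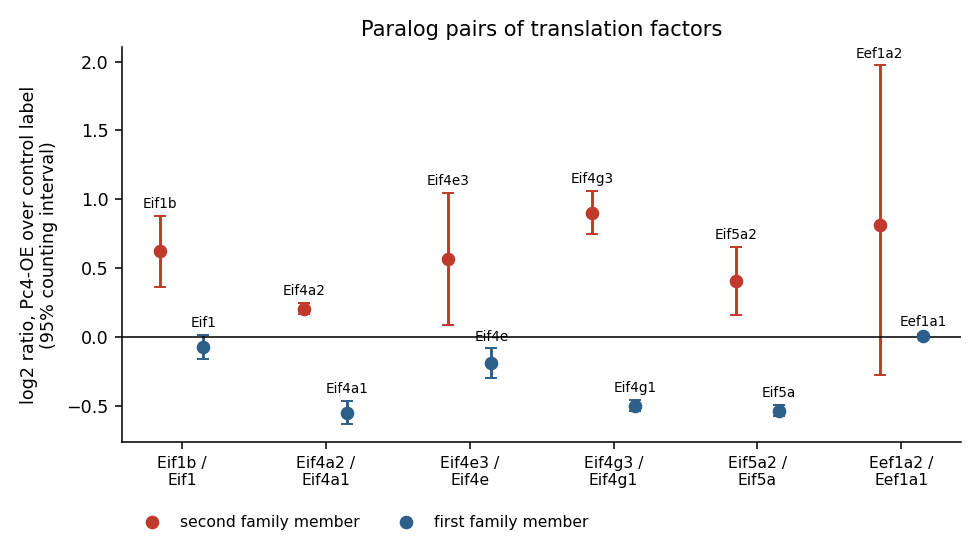
Log2 ratio of Pc4-OE over control for both genes of 6 paralog pairs, the second family member in red on the left and the first in blue on the right, with bars for the 95% counting interval. The red point is above the blue one in each pair, and the bars overlap for Eef1a2 and Eef1a1.

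Chromosome position went with part of the values. On chromosome 5, all 5 members had a ratio below 1 (median -0.91) and 4 were at least 1.5-fold lower: Eif2b1, Eif3b, Eif2b4 and Eif2ak1. The 749 other genes there that averaged 5 CPM or more had a median of -0.32, and 31.1% of them were at least 1.5-fold lower. On chromosome 15, all 6 members had a ratio below 1 (median -0.59) and 3 were at least 1.5-fold lower. The 455 other genes there had a median of -0.13, and 22.4% of them were at least 1.5-fold lower. Eif3h and Eif3e were no lower than the genes around them: within 5 Mb, the 14 neighbours of Eif3h had a median of -0.91 and the 15 neighbours of Eif3e one of -0.82, against -0.86 and -0.77 for the genes themselves. Eef1d and Eif3l, farther along chromosome 15, had neighbours at -0.01 and -0.03.

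Without the members on these 2 chromosomes, 47 genes were left, with 37 below a ratio of 1 (78.7%) and a median of -0.34. Values per chromosome were summarised for these 2 alone. Every member there lay below a ratio of 1, so leaving them out had to lower the share below 1. At least 1.5-fold lower were 6 of the 47 (12.8%), and 2 were higher (4.26%). Over all genes measured the shares were 13.2% lower and 18.8% higher, but those include chromosomes 5 and 15. The shares of other genes without these 2 chromosomes were not computed. Set against the median of its own neighbours, a member was lower in 44 of 58 cases, and the median difference over all 58 was -0.34 on the log2 scale. The neighbours needed only 5 CPM, whereas 41 of the 58 members averaged 100 CPM or more. At that level the other genes had a median of -0.18, so the difference holds an effect of level. The same count was not made for genes that are not members.

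**Figure D5:**
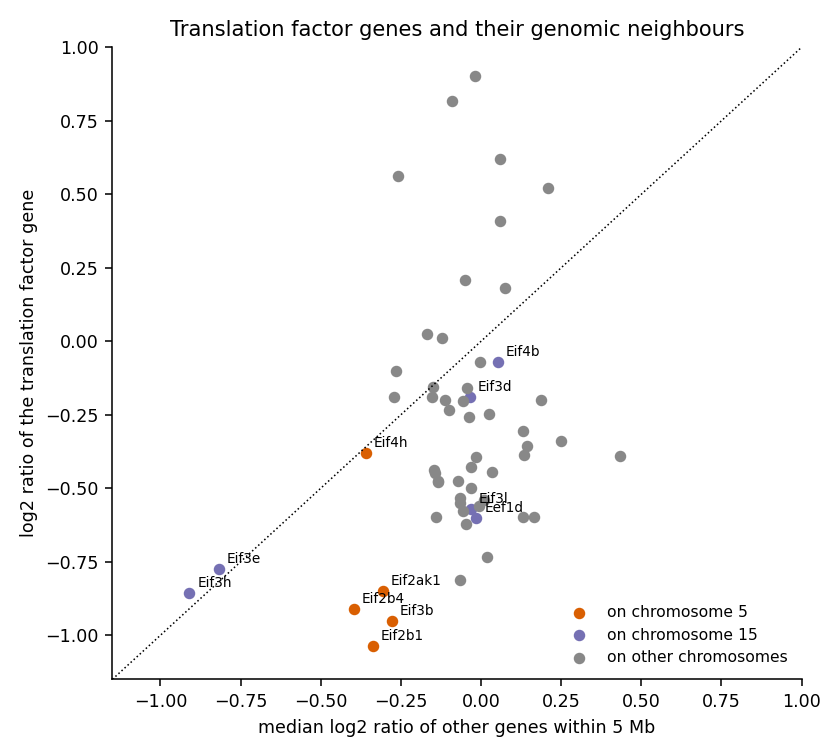
Median log2 ratio of other genes within 5 Mb that averaged 5 CPM or more (horizontal axis) against the log2 ratio of the translation factor gene (vertical axis), with members on chromosomes 5 and 15 coloured and named and the dotted line marking equal values. Eif3e and Eif3h lie on the line at -0.77 and -0.86, while Eif2b1, Eif3b, Eif2b4 and Eif2ak1 lie below it.

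Promoters were examined for the E-box CACGTG, the site bound by Myc and its relatives, which are known to drive many translation factor genes. The E-box is the same on both strands. It was present within 250 bases before to 50 after a RefSeq start in 12 of 46 members (26.1%), in 11.7% of measured genes with an entry and in 7.15% of all promoters. Members with it had a median log2 ratio of -0.32, with 8 of 12 below a ratio of 1. Members without it had a median of -0.37, with 29 of 34 below. Over all measured genes the medians were -0.02 with the E-box and -0.01 without it. The ETS-type motif CCGGAAG, searched on both strands and counted whether or not it overlapped an E-box, was present in 17 of 46 members (37.0%) and in 18.8% of measured genes with an entry (8.86% of all promoters). Members with it had a median of -0.48 and members without it -0.34, while over all measured genes the medians were -0.14 with it and 0.03 without it. A match is a string of letters and not a shown binding site.

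E-box windows of members on both sides of a ratio of 1 are printed next, each with 20 bases on either side and the E-box in capitals, from RefSeq's promoters of GRCm38.p6. Only members with a single RefSeq promoter and a window wholly before the start were considered. The window of Eif3k (-0.45) is not printed, and of all 12 members with an E-box 8 lay below a ratio of 1. Eif4g1, Eif4a1 and Eif4h were lower under the Pc4-OE label, and Eef2, Eif3f and Eif5a2 were higher.
Eif4g1 (chr16:20672653-20672698, plus strand): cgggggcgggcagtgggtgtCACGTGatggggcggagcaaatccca
Eif4a1 (chr11:69672587-69672632, minus strand): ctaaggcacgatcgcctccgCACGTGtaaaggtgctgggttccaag
Eif4h (chr5:134639480-134639525, minus strand): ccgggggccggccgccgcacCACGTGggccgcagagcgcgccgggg
Eef2 (chr10:81176568-81176613, plus strand): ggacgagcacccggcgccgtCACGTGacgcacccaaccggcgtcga
Eif3f (chr7:108934327-108934372, plus strand): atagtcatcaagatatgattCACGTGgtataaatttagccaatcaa
Eif5a2 (chr3:28781115-28781160, plus strand): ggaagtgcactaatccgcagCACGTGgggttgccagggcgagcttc
The E-boxes begin 54, 189, 96, 43, 68 and 142 bases before the start in that order. Eif5a2 has another one 117 bases before its start.

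Later steps of the same pathway gave these values. Of 6 termination and recycling genes, 2 were at least 1.5-fold lower (33.3%, against 13.2% of all genes) and 0 higher, with a median of -0.18. Etf1, the release factor eRF1, had 395.0 CPM under the Pc4-OE label and 672.4 CPM under the control label (-0.77), and its partner Gspt1 had 262.0 and 394.6 CPM (-0.59). Abce1, which splits ribosomes after termination, was near even at 0.07. All 10 genes for hypusine, diphthamide and selenocysteine lay under a ratio of 1 (against 50.7% of all genes). Their median was -0.32, and Dhps, the first enzyme of hypusine synthesis on eIF5A, was at -0.49. Among 10 mTORC1 genes the median was -0.15. Deptor, an inhibitor of mTOR, was 2.26-fold lower (79.5 CPM under the Pc4-OE label and 179.7 CPM under the control label) and Mtor itself was at -0.39. Unlike the members, genes of these lists were not set against their genomic neighbours.

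Mitochondria use their own translation factors, and all 10 listed ones lay under a ratio of 1 (against 50.7% of all genes). Their median was -0.56, and 4 were at least 1.5-fold lower (40.0%, against 13.2% of all genes): Mtif3, Gfm2, Mtrf1l and Mrrf. Gfm2, a factor of ribosome recycling, had 77.1 CPM under the Pc4-OE label and 124.2 CPM under the control label (-0.69). Of 20 cytosolic aminoacyl-tRNA synthetases 19 were below a ratio of 1, with a median of -0.37, and Tars alone was at least 2-fold lower (2.01-fold). Of 83 ribosomal protein genes 64 lay under a ratio of 1 (77.1%), with a median of -0.19. At least 1.5-fold lower were 16 of them (19.3%) and at least 2-fold lower 5 (6.02%), with 0 higher at either fold. With 1 library per label, whether the translation factors differ from these lists could not be tested.

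The least counted member above the minimum was Eef1a2 (33 counts summed), and the next was Eif4e3 (158). Below it were Eif3j1, Eif3j2 and Eif4e1b, each listed at 0 in both libraries. Eif3j1 and Eif3j2 encode the eIF3j subunit, and 41.3% and 94.9% of their words occur in transcripts of other genes, so a count of 0 does not show that the gene was silent. For Eif4e1b, known from oocytes, 0 counts allow up to 0.290 CPM under the Pc4-OE label and 0.288 CPM under the control label, for counting error only.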

How the data were processed

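The authors deposited 1 table of whole-number read counts per gene, 1 column for each of the 2 libraries. STAR 2.4.1c, featureCounts and mm10 are named in the submitters' processing notes. Neither the gene annotation nor how strand and repeated reads were handled is stated in the labels, so genes with near-identical copies or overlapping neighbours are uncertain. The kit was stranded, per the labels' protocols.

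From those counts, CPM was computed on effective library sizes (TMM, edgeR 4.0.16), and Pc4-OE was divided by control, with no pseudocount, for genes with at least 20 counts in all. Intervals are Clopper-Pearson (SciPy 1.17.1) at 95%. For 20 counts split evenly the bounds are 0.374 and 2.68, and for 1000 counts 0.882 and 1.13. A gene counts as 2-fold or 1.5-fold higher or lower when its ratio passes that fold and its interval leaves out 1. The steps were tested on data drawn with known folds. DESeq2 1.42.0 size factors were an alternative scaling, and others were plain totals, a pseudocount of 0.5 CPM, a minimum of 100 counts and a set without chromosomes 5 and 15.

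Positions are from RefSeq (GRCm38.p6, the assembly of mm10), exon lengths and 31-base words from GENCODE M21. The members and lists were chosen with earlier results of these data known. Every member could be named. From each pathway list, genes could be named if past 2-fold, and otherwise up to 4 with the interval bound farthest from 1. Marker lists were to be given as sums. Ppp1r15a, Gnb2l1, Mtrf1l, Tars, Lin28a, Pou5f1 and Tdgf1 fall outside that rule and were named after their values were seen, as were the paralog pairs, the motifs, the level minimum and the neighbour medians chosen. Gcn1l1 and Gnb2l1 are the table's symbols for genes listed under a second name too.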

Additional observations from a re-analysis of the deposited data

How the results depend on the processing

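No paired analysis was possible because there was 1 library per label. For the same reason no library could be left out. Across DESeq2 size factors, plain library totals, a pseudocount of 0.5 CPM, a minimum of 100 counts and no minimum, the median log2 ratio of the translation factors lay between -0.40 and -0.35, and no gene changed sign. With plain totals, which move the median of all genes to 0.03, 0 genes were at least 2-fold lower (1 with TMM). At a fold of 1.5, 8 were lower (13 with TMM), since several lay near the line, and 3 were higher (2 with TMM). Without members on chromosomes 5 and 15, 0 were 2-fold lower and 6 were 1.5-fold lower, the median of eIF4F and helpers was -0.50 (-0.38 with them), lower than that of eIF3 at -0.45 (-0.52 with them), and that of elongation -0.075 (-0.16 with them). Of 58 genes, 9 moved outside their counting interval with plain totals, by at most 0.04 on the log2 scale. The pseudocount moved single genes by at most 0.20. Depth limits Eef1a2, Eif4e3 and Eif4ebp3, whose intervals are wide.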
